A study of Mus musculus with 16 samples.

Results

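The genes described here encode the oxidative phosphorylation machinery of the mitochondrion, 105 of the 53465 genes counted. They were chosen by symbol among protein-coding genes: every gene of the mitochondrial chromosome (prefix mt-), the Nduf genes followed by a, b, c, s or v, the Uqcr genes, Cox4 to Cox8, the Atp5 genes, and Sdha, Sdhb, Sdhc and Sdhd. Of these, 13 are mt-encoded, that is, carried by mitochondrial DNA, and 92 are nuclear-encoded. The nuclear-encoded members comprised 36 genes of complex I, 4 of complex II, 8 of complex III, 19 of complex IV and 15 of complex V. The symbol rule also took in 8 Nduf assembly factors (Ndufaf), which build complex I and are not part of it, and 2 genes that are not counted here as subunits of a single complex, Atp5s and Cox7a2l.

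Group 2 innate lymphoid cells (ILC2), tissue-resident lymphocytes that make type 2 cytokines, were sorted for RNA sequencing from the duodenum of untreated C57BL/6 mice aged 6 to 10 weeks. The 16 libraries came from 4 groups of 4. All mice, controls included, were homozygous for the smart13 reporter allele at Il13. The WT group carried no other allele, and the Alox5 KO group also carried Alox5 -/-. The Il25 KO group carried Il25 -/- together with Arg1 Yarg/Yarg, a reporter allele at Arg1, and the St2 KO group carried St2 -/- together with the same Arg1 Yarg/Yarg alleles. An effect of either knockout against WT therefore cannot be told apart from an effect of the Yarg allele. Alox5 is the lipoxygenase at the start of leukotriene synthesis, Il25 is a cytokine gene of tuft cells, and St2 (gene symbol Il1rl1) binds the cytokine IL-33. The comparisons ask how the resting ILC2 transcriptome differs when each of these signals is missing. Nothing in the labels ties each library to a mouse of its own, so the p-values below reflect only the spread among these libraries, which may be technical. In bulk RNA, fewer cells of a type and less RNA per cell cannot be told apart.

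Oxidative phosphorylation passes electrons from NADH and succinate through complexes I to IV to oxygen, and complex V uses the resulting proton gradient to make ATP. The subunits of complexes I, III, IV and V come from both genomes, whereas complex II, succinate dehydrogenase, is encoded in the nucleus alone. The mitochondrial genes are transcribed as long polycistronic RNAs that are cut into single messages. The nuclear genes are dispersed over the chromosomes, and their messages are translated in the cytosol and imported. Pieces of mitochondrial DNA have been copied into the nuclear genome during evolution, and such copies can resemble the original genes base for base.

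Which mt-encoded members could be read from these counts followed the sequence they share with such copies. A row of annotated pseudogenes on mouse chromosome 1 copies the stretch of mitochondrial DNA from mt-Co1 to mt-Nd4. The first 90 bases of mt-Co3 and mt-Nd3, and a 90-base stretch of mt-Co1 at the edge of its copy, are shown with their chromosome 1 counterparts because they show how close the copies are. They were read from the GENCODE vM21 transcripts (GRCm38) and run 5′ to 3′ on the strand of the gene, with bases that differ between gene and copy in capitals. The mt-Co3 stretch lies at chrM:8607-8696 on the + strand and that of its copy Gm28437 at chr1:24613882-24613971 on the - strand. The mt-Nd3 stretch lies at chrM:9459-9548 and that of Gm28438 at chr1:24613030-24613119, on the same strands. The mt-Co1 stretch lies at chrM:6381-6470 and that of Gm29216 at chr1:24616108-24616197, again on those strands.
mt-Co3: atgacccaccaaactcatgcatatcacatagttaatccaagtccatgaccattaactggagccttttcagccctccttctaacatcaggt
Gm28437: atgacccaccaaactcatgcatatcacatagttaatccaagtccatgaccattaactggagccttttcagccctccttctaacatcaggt
mt-Nd3: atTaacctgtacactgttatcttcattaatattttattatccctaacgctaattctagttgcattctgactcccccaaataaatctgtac
Gm28438: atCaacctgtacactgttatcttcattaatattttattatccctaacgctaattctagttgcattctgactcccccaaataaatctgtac
mt-Co1: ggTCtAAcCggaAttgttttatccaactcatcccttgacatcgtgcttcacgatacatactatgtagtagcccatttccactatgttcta
Gm29216: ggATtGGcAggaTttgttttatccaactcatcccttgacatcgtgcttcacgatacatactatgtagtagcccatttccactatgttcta

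Over its whole aligned length Gm28437 was identical to mt-Co3 at 783 of 783 bases. Gm28661 was identical to mt-Co2, which encodes a catalytic subunit of complex IV, at 681 of 681 bases, and Gm10925 to mt-Atp6, the proton channel subunit of complex V, at 678 of 678 bases. Gm28438 differed from mt-Nd3, a complex I subunit, at 1 of 345 bases (T3C, with the gene's base first and positions counted from its first base). Gm28439 matched the first 876 of the 1378 bases of mt-Nd4, also of complex I. Gm29216 covered the last 492 bases of mt-Co1, the other catalytic subunit of complex IV, and differed at 6 of them, all between positions 1056 and 1066 of the gene. The 7 copies themselves held 0 to 4 counts each, summed over the 16 libraries.

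The members with an almost complete copy had almost no counts. To put a number on this, every 50-base window of a gene's annotated transcripts was looked up in the transcripts of all other annotated genes. For mt-Co2, mt-Co3, mt-Atp6, mt-Nd3 and mt-Nd4l, between 98.0% and 100% of windows were found elsewhere. mt-Co2, mt-Co3 and mt-Nd4l had 0 counts in every library, which over the 42561247 counts of all libraries allows a level of up to 0.0705 CPM (counts per 1000000, a gene's count divided by the library's total count and multiplied by 1000000), a limit that covers counting error only. mt-Atp6 had 1 count in all, and mt-Nd3 had 0 to 5 counts per library. mt-Co1 and mt-Nd4, with 51.1% and 62.2% of windows found elsewhere, kept counts. mt-Cytb, mt-Nd1 and mt-Nd6 had 0% of windows in common with another gene, and mt-Nd2 and mt-Nd5 had 8.19% and 7.61%. mt-Atp8 had 0 counts although 0% of its windows were found in another annotated gene. It is the shortest mt-encoded member, with 204 bases, and lies between mt-Co2 and mt-Atp6, overlapping the latter. The search covered annotated transcripts only. Gm10925 ends at chr1:24614651 and Gm28661, the copy of mt-Co2, starts at chr1:24614885. The stretch between them was not read, so a copy of mt-Atp8 there was not looked for. How reads that fit several places were counted is not given in the sources used here, and its part in these zeros was not tested. A value of 0 for these genes therefore gives no level of the transcript, and the sum over the mt-encoded members is in effect the sum over 7 of the 13.

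**Figure D1:**
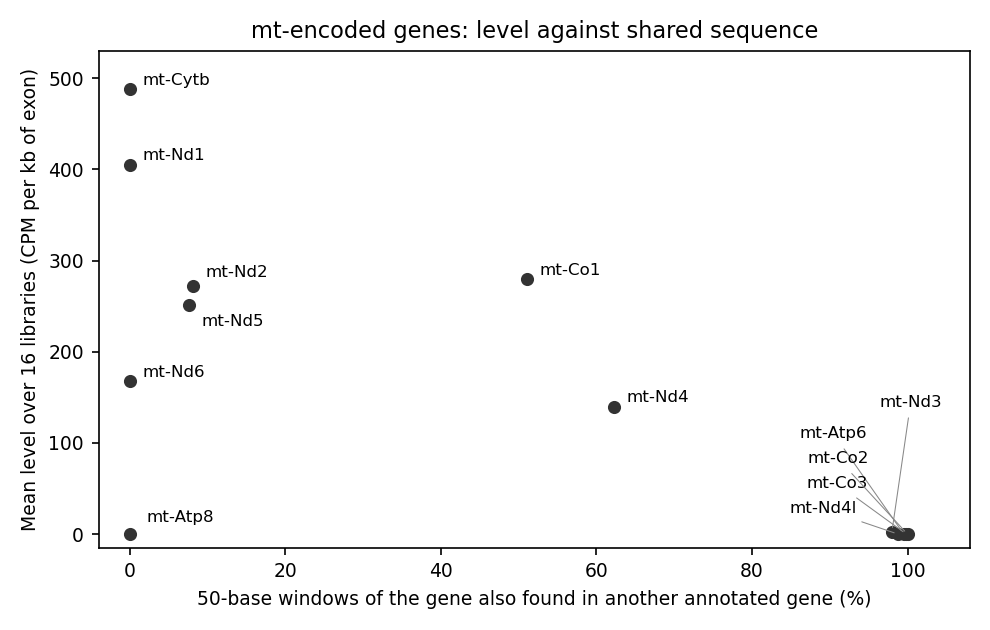
Level of each mt-encoded gene (mean of 16 libraries, in CPM per kb of exon, linear axis) against the percentage of its 50-base windows also found in another annotated gene. The 5 genes with 98.0% or more of their windows elsewhere lie near 0, the 7 other genes with counts lie between 140 and 488 CPM per kb, and mt-Atp8 is at 0 without shared windows.

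Levels between genes are compared in CPM per kb of exon (mean ± SD over n = 16 libraries), since longer genes collect more reads. The length is the union of all annotated exons of a gene, over all its transcripts. A gene with annotated exons that these cells do not use therefore gets too low a level. The union was 6443 bases for Atp5l and 4912 for Atp5g1, against 1144 for mt-Cytb. The 5 members of highest mean level were all mt-encoded. This did not hold in every library: in Il25 KO 3 the nuclear-encoded Cox6a1 stood above mt-Nd2 and mt-Nd5 per kb. mt-Cytb, the cytochrome b subunit of complex III, stood at 488 ± 59.0 CPM per kb (chrM:14145-15288), and mt-Nd1, a membrane subunit of complex I, at 405 ± 55.4. mt-Co1 followed at 279.7 ± 28.9, mt-Nd2 at 272 ± 42.6 and mt-Nd5 at 251 ± 31.5. The SD over libraries is wider than the gaps between mt-Co1, mt-Nd2 and mt-Nd5, but the genes were read in the same libraries. Within every library mt-Co1 stood above mt-Nd5 per kb, whereas the place of mt-Nd2 changed between libraries and is not resolved. mt-Nd6, the 1 member on the opposite strand of the mitochondrial chromosome, had 168 ± 36.5 and mt-Nd4 had 139.8 ± 18.7 CPM per kb. The libraries do not mark the strand, so reads from the RNA opposite mt-Nd6 cannot be told apart from its own. The level of mt-Co1 and mt-Nd4 is per whole gene although their sequence is partly shared. Counts of densely covered genes rose less than in proportion to depth, as described below, so levels of the densest genes are uncertain.

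The highest nuclear-encoded members were small subunits of complexes IV and I together with the alpha subunit of complex V. Cox6a1, a subunit of complex IV, had 234 ± 25.7 CPM per kb and Ndufa1, an accessory subunit of complex I, had 219.7 ± 25.8. Atp5a1, the alpha subunit of the ATP synthase head, had 208 ± 9.83, Ndufa2 of complex I had 205 ± 26.6 and Cox8a of complex IV had 204 ± 22.5. These 5 lie within the spread of their neighbours in the order. By complex, the median level of the nuclear-encoded members was 82.3 CPM per kb for complex I, 102 for complex II, 92.1 for complex III, 34.4 for complex IV and 60.6 for complex V, against 22.9 for the 8 assembly factors. The lower median of complex IV includes its tissue-restricted isoforms.

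Several complex IV subunits and a complex V subunit exist as alternative genes used in different tissues, and in these ILC2 the widely expressed gene of each group carried the counts. Cox4i1 had 145 ± 14.3 CPM per kb and its lung-associated alternative Cox4i2 had 1.15. Cox6a1, given above, stood against Cox6a2, the heart and muscle form, with 0 counts. Cox6b1 had 201 ± 23.0 and the testis form Cox6b2 had 1.89. Cox7a2 had 116 ± 17.9 and the heart and muscle form Cox7a1 had 0.83, while the related Cox7a2l, which takes part in joining complexes III and IV, had 52.3. Cox7b had 80.9 ± 9.67 and Cox7b2 had 0 counts. Cox8a, given above, stood against Cox8b with 0 counts and Cox8c with 0.196. Ndufa4, first named for complex I and now placed in complex IV, had 79.1 ± 25.8 and its hypoxia-associated relative Ndufa4l2 had 0.0215. Of the 3 genes for the c subunit of the complex V rotor, which encode the same mature protein, Atp5g3 had 102 ± 10.2, Atp5g1 2.2 and Atp5g2 1.1. Atp5g2 shares 38.3% of its windows with other genes and Atp5g1 11.1%, so their low values are uncertain in the way described for the mitochondrial genes, and so are those of Ndufs5, Cox7c, Ndufb4 and Uqcrb, with 18.3% to 25.5% of windows elsewhere. Ndufaf2, an assembly factor with 9.48 CPM per kb, shares 64.1% with overlapping annotated transcripts.

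Nuclear genes of this machinery are known for binding sites of the transcription factor NRF1 near their starts. RefSeq promoter sequences (GRCm38.p6, 250 bases before to 50 after the start) were available for 74 of the 92 nuclear-encoded members. The letters GCGCANGCG, the core of the NRF1 motif, searched on both strands, were present for 29.7% of these genes and for 7.03% of all 27025 genes in the same table. The letters CCGGAAGT, bound by ETS factors, were present for 6.76% against 4.31%, and AAGATGGCG, bound by YY1, for 10.8% against 1.64%. Longer forms of the NRF1 and YY1 letters, with C and with GC added at the end, were searched first, and the shorter cores were chosen after those results were seen. The longer NRF1 form was present for 25.7% of the members' genes against 5.19% of all, and the longer YY1 form for 6.76% against 0.755%. The 3 motifs were searched separately and a promoter can hold more than 1 of them. The median GC content was 57.7% for the members' promoters and 52.7% for all, and its part in the higher share of the GC-rich NRF1 letters was not tested. The genes of the table were not limited to protein-coding or expressed ones. Whether the members differ from expressed genes in general was not tested. The upstream parts of 2 promoters are shown up to the first base of the GENCODE gene model, 5′ to 3′ towards the gene, with matches to the 3 motifs in capitals: Cox6a1, the highest nuclear-encoded member (chr5:115348982-115349208, - strand), and Ndufa4, the member that changed most (chr6:11907498-11907700, - strand). The Cox6a1 sequence has 2 stretches with such a match, both to the NRF1 letters (the longer one matches on both strands), and that of Ndufa4 has 0. A match is a description of letters and not a bound site, and no match says only that these letters are not in this window.
Cox6a1: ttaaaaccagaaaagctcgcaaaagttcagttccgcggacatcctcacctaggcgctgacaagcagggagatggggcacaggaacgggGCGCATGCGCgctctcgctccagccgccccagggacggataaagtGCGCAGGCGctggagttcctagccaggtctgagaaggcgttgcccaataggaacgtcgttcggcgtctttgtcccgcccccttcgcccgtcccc
Ndufa4: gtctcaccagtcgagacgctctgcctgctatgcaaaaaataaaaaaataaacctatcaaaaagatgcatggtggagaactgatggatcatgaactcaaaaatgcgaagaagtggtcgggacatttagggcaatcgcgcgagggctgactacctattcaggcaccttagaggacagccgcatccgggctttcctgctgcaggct

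The libraries held 2086864 to 3216937 counts, with Alox5 KO 4 the shallowest and St2 KO 2 the deepest. All 4 St2 KO totals (2737714 to 3216937) lay above all 4 WT totals (2447504 to 2657153). Alox5 had 76.0 to 145 CPM in WT and 4.8 to 12 in Alox5 KO, and Arg1 had 310.4 to 386 CPM in WT and 12.7 to 31.3 in the 8 libraries with Yarg. Il25 had 0 counts in all 16 libraries, and Il1rl1 stayed at 126 to 208 CPM in St2 KO against 169 to 246 in WT, so the counts do not check those 2 labels. All 9 ILC2 marker genes were present, with a summed level of 5767 to 7598 CPM. The 7 B and plasma cell markers summed to 914 to 1118 CPM in WT, 205 to 916 in Alox5 KO, 729 to 1098 in Il25 KO and 323 to 811 in St2 KO, with 0 of the 7 at 0 counts, and their part in the results below was not tested. The 6 epithelial markers were at most 267 CPM, in an Il25 KO library. The sample codes fell into 3 letter pairs: replicates 1 and 2 of every group were coded TS, while replicates 3 and 4 were coded TT in WT and Alox5 KO, and TY in the 2 groups with Yarg. The labels leave the letters unexplained. The pair was a term in the model, and the TY code is shared by Il25 KO and St2 KO but not by WT. The TY libraries stood apart in Xist, the RNA made from the inactive X chromosome of female cells, with 982 and 1288 counts in Il25 KO 3 and 4 and 1443 and 1682 in St2 KO 3 and 4, against 0 to 7 counts in the other 12 libraries. Only the groups with Yarg hold such libraries, and CPM values and counts of non-overlapping libraries below are not adjusted for this.

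The mt-encoded members made up between 0.184% and 0.311% of a library's counts. The share was 0.263%, 0.257%, 0.243% and 0.255% in WT replicates 1 to 4. It was 0.273%, 0.257%, 0.2405% and 0.311% in Alox5 KO. It was 0.239%, 0.236%, 0.217% and 0.205% in Il25 KO, and 0.227%, 0.184%, 0.218% and 0.212% in St2 KO. All 8 libraries with the Yarg allele were below all 8 without it. Among the TS libraries, where Xist had at most 1 count, the 4 with it were below the 4 without it. The totals of these TS libraries were also apart, at 2725814 to 3216937 counts with Yarg and 2511731 to 2593258 without it. In the TS libraries the effects of depth and genotype on this share therefore cannot be told apart. The group means ± SD (n = 4) were 0.255% ± 0.00815 in WT, 0.2703% ± 0.0304 in Alox5 KO, 0.224% ± 0.0164 in Il25 KO and 0.2103% ± 0.0184 in St2 KO.

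The nuclear-encoded members took a larger share of the counts with smaller relative differences. The mt-encoded sum lacks the members with few or no counts, and it did not rise with depth, as described below. These shares and their ratio therefore do not give the relative amounts of mt-encoded and nuclear-encoded RNA in the cells. It was 1.11%, 1.14%, 1.14% and 1.16% in WT and 1.18%, 1.15%, 1.08% and 1.33% in Alox5 KO. It was 1.08%, 1.11%, 1.14% and 1.01% in Il25 KO and 1.08%, 1.04%, 1.04% and 1.06% in St2 KO. The St2 KO libraries were all below the WT libraries, the Il25 KO libraries overlapped them, and Alox5 KO 4 stood apart with the highest share.

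The ratio of summed mt-encoded to summed nuclear-encoded counts compares the sets within a library, and the library's total cancels out of it. Its log2 was still lower at higher totals, with Pearson's r = -0.66 and Spearman's rho = -0.59 over the 16 libraries. Without Alox5 KO 4 and St2 KO 2, r was -0.32. Within the 8 TS libraries r was -0.93 and rho -0.86 (r = -0.71 without St2 KO 1 and St2 KO 2). The ratio was 0.236, 0.226, 0.213 and 0.219 in WT and 0.231, 0.223, 0.223 and 0.233 in Alox5 KO. It was 0.222, 0.212, 0.191 and 0.204 in Il25 KO and 0.211, 0.178, 0.2101 and 0.199 in St2 KO. All 4 St2 KO ratios were below all 4 WT ratios, whereas Il25 KO overlapped WT. On the log2 scale the mean ratio differed from WT by 0.03 in Alox5 KO, by -0.11 in Il25 KO and by -0.17 in St2 KO, where the pooled SD between libraries of the groups compared was 0.0510, 0.0790 and 0.0922. The difference between Il25 KO and St2 KO was 0.06 with a pooled SD of 0.103. These values are given without a test, since the members were chosen with earlier results of these data known.

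**Figure D2:**
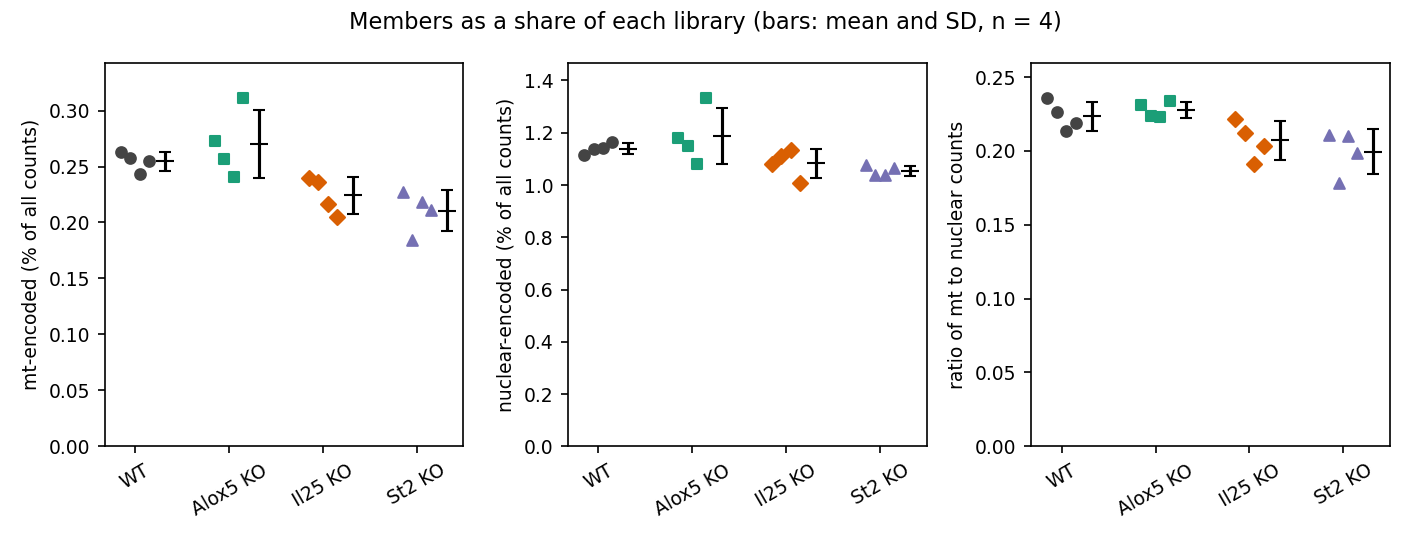
Summed counts of the 13 mt-encoded members (left) and of the 92 nuclear-encoded members (middle) as percentages of each library's counts, and their ratio (right), with 1 point per library, in replicate order within a group, and the mean and SD of each group (n = 4). The mt-encoded share of the 8 Il25 KO and St2 KO libraries lies between 0.184% and 0.239%, below the 0.2405% to 0.311% of the 8 other libraries.

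The summed count of the mt-encoded members did not rise with the total count of the library. It ranged from 5319 to 6855 over the 16 libraries, with Pearson's r = -0.12 and Spearman's rho = -0.14 against the total. Within the 8 TS libraries it was lower at higher totals (r = -0.80, rho = -0.55, and r = -0.72 without St2 KO 1 and St2 KO 2). Divided by that total, as CPM, the same counts gave r = -0.83 and rho = -0.71 against it (r = -0.57 without Alox5 KO 4 and St2 KO 2, the libraries farthest from the median total). Within the TS libraries r for the CPM was -0.98. The nuclear-encoded count followed depth (r = 0.79), but less than in proportion: its CPM had r = -0.82 and rho = -0.83 against the total (r = -0.68 without the same libraries). The mt-encoded and nuclear-encoded CPM moved together over the libraries (r = 0.89, rho = 0.86, and r = 0.78 without Il25 KO 4 and Alox5 KO 4). These correlations are descriptions, because the CPM values share the library total in their denominator.

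The slope of a gene's log2 count on the log2 total says how far its count rises with depth, with 1 for a proportional rise. The median slope was 1.11 over 8247 genes with at least 20 counts in every library. Among these genes it was -0.09 over the 7 mt-encoded members (range -0.61 to 0.05) and 0.19 over 81 nuclear-encoded members. Over all genes the median slope was lower the more densely a gene was covered. It was 1.22 for genes under 0.1 reads per exonic base, 0.48 for those from 0.3 to 0.5 and 0.16 for the 23 genes of 1 or more, among them mt-Cytb (1.28 reads per base) and mt-Nd1 (1.07). The 18 nuclear-encoded members under 0.1 reads per base also had a low median slope of 0.11, against 1.22 for all genes of that density. Reads per base rest on the same union of annotated exons, so unused exons lower the density of a gene. Whether duplicate reads were removed before counting is not given in the sources used here, and its part in these slopes was not tested.

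**Figure D3:**
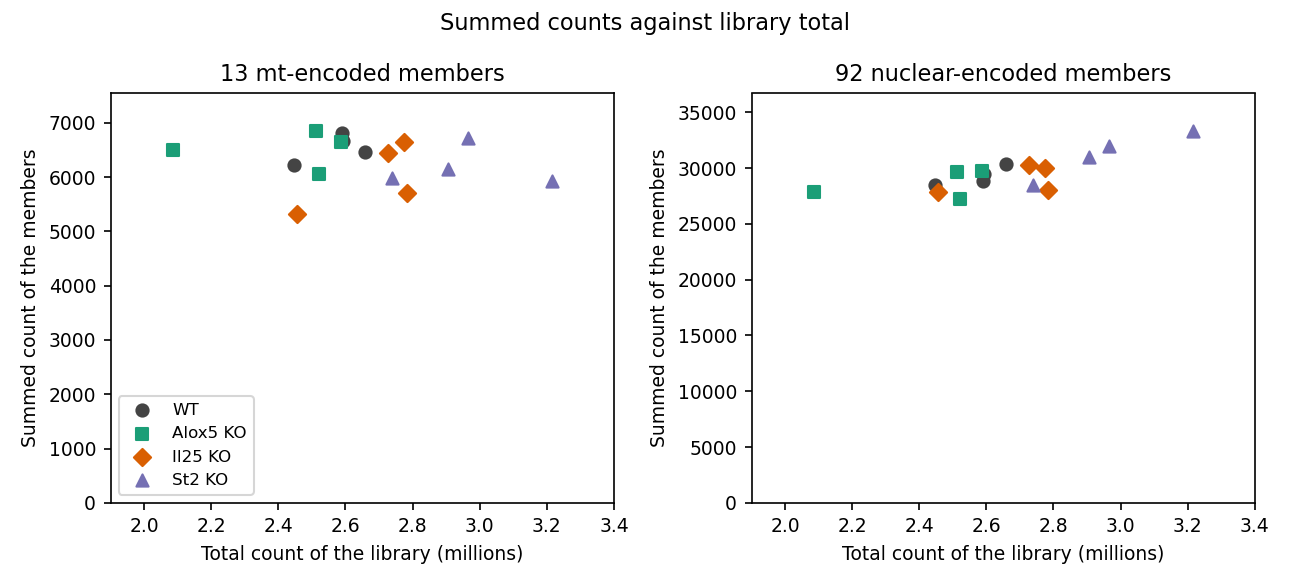
Summed count of the mt-encoded (left) and nuclear-encoded (right) members against the total count of the library, with 1 point per library and symbols for the 4 groups; the vertical axes start at 0. The mt-encoded sum stays between 5319 and 6855 from the shallowest to the deepest library, and the nuclear-encoded sum lies between 27225 and 33344.

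Changes between groups were tested gene by gene with edgeR's quasi-likelihood test on all 11742 genes that passed its filter on low counts, with Benjamini-Hochberg adjustment over all of them and a threshold of 0.05. Of the members, 90 passed the filter, 7 mt-encoded (mt-Nd1, mt-Nd2, mt-Co1, mt-Nd4, mt-Nd5, mt-Nd6 and mt-Cytb) and 83 nuclear-encoded. The 15 others were too low to test. Log2 fold changes are given ± SE. The comparisons with WT share the WT libraries, and the direct comparison of Il25 KO with St2 KO shares libraries with both.

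In Alox5 KO against WT, 0 of the 90 members passed the edgeR test, 0 had an unadjusted p under 0.05, and DESeq2 also called 0. Over all genes tested 0.102% passed. The median log2 fold change was 0.10 over the 7 mt-encoded members, of which 7 were above 0, and 0.09 over the 83 nuclear-encoded members, of which 71 were above 0, beside 0.01 over all genes. In 2 nuclear-encoded members, Ndufaf2 and Ndufs4, all 4 Alox5 KO libraries were above all 4 WT libraries, which 1.76% of all genes showed, and in 0 members they were all below, which 2.08% of all genes showed. Ndufaf2, an assembly factor of complex I, had 26.7, 29.3, 26.3 and 26.1 CPM in WT and 37.8, 29.8, 32.5 and 42.6 in Alox5 KO (0.40 ± 0.201, edgeR adjusted p = 0.698), and it overlaps other annotated transcripts. Ndufs4, a complex I subunit, had 149, 152, 146 and 155 CPM in WT and 156, 164, 165 and 197 in Alox5 KO (0.19 ± 0.100, edgeR adjusted p = 0.715). The other members at the edges were Atp5l (0.46 ± 0.414) and Ndufb2 (0.37 ± 0.252) on the high side and Atp5g1 (-0.19 ± 0.322) and Ndufaf1 (-0.17 ± 0.194) on the low side, beside Sdha, none past the threshold. The 313 other tested genes with at least 0.3 reads per exonic base had a median of 0.08. Without Alox5 KO 4, the library of lowest total, and St2 KO 2, chosen after the data were seen, the medians were 0.00 for mt-encoded and -0.01 for nuclear-encoded members. With the library total as a term, also added after the data were seen, they were -0.03, with 6 of 7 below 0, and -0.02, with 53 of 83 below 0.

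Complex II is the 1 complex with no mt-encoded subunit, and its catalytic flavoprotein gene Sdha was lowest in an Alox5 KO library. Sdha had 432, 417, 379 and 433 CPM in WT and 425, 397, 366 and 267 in Alox5 KO. It had 423, 449, 432 and 409.9 in Il25 KO and 446, 444, 444 and 442 in St2 KO. Alox5 KO 4 held 558 Sdha counts, the lowest of the 16 libraries, and in the same library the sums of both member sets were at their highest CPM. The fitted change in Alox5 KO was -0.18 ± 0.0900 (edgeR adjusted p = 0.691). Sdhb, the iron-sulfur subunit, changed by 0.05 ± 0.0940, and the membrane anchors Sdhc and Sdhd by 0.21 ± 0.116 and 0.08 ± 0.0980, none past the threshold.

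In Il25 KO against WT, 1 of the 90 members passed, Ndufa4, where 0.417% of all genes did. The median of the mt-encoded members was -0.14, with 7 of 7 below 0, and that of the nuclear-encoded members was -0.02, with 51 of 83 below 0, beside 0.00 over all genes, of which 49.7% were below 0. With the library total as a term, added after the data were seen, the mt-encoded median was -0.04, with 6 of 7 below 0, and the nuclear-encoded median turned to 0.06, with 62 of 83 above 0. All 4 Il25 KO libraries were below all WT libraries for mt-Co1, mt-Cytb and mt-Nd4 and for 9 of 83 nuclear-encoded members (Ndufa4, Ndufa6, Ndufa8, Ndufa12, Ndufb3, Ndufc1, Ndufc2, Ndufaf1 and Uqcrc2), against 4.23% of all genes. They were all above for Sdhc alone, against 2.55% of all genes. Sdhc had 118, 98.3, 120.1 and 115 CPM in WT and 120.3, 132, 129.5 and 125 in Il25 KO (0.21 ± 0.140, edgeR adjusted p = 0.709). Sdhd had 228, 249, 194 and 230.4 CPM in WT and 220.5, 181, 177 and 181 in Il25 KO (-0.23 ± 0.120, edgeR adjusted p = 0.589), so 3 of the 4 Il25 KO libraries lay below WT. Cox7c of complex IV (-0.50 ± 0.279) and Ndufaf1 of complex I assembly (-0.39 ± 0.238) were the next lowest members after Ndufa4, and Ndufb2 (0.46 ± 0.306), Atp5s (0.29 ± 0.265) and Atp5l (0.27 ± 0.520) the highest, none past the threshold.

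Ndufa4 (ENSMUSG00000029632, GRCm38 chr6:11900292-11907497, - strand), a subunit of complex IV, was lower in both groups that carry the Yarg allele. Its counts were 350, 349, 355 and 343 in WT and 346, 337, 321 and 391 in Alox5 KO. They were 224, 178, 197 and 194 in Il25 KO and 242, 223, 237 and 259 in St2 KO. In CPM, WT had 135, 135, 134 and 140.1 and Alox5 KO had 138, 130.2, 127 and 187. Il25 KO had 80.7, 65.3, 80.2 and 69.7 CPM and St2 KO had 81.6, 69.3, 86.6 and 89.1. The 8 libraries with the Yarg allele did not overlap the 8 without it, in counts or in CPM. The same held among the 8 TS libraries, which have next to no Xist counts. The share of all genes with such a split was not counted. Ndufa4 was singled out by its call in these same libraries, so the split is no separate evidence. The group means ± SD (n = 4) were 136 ± 2.92 CPM in WT, 146 ± 28.1 in Alox5 KO, 74.0 ± 7.71 in Il25 KO and 81.7 ± 8.79 in St2 KO.

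The fitted log2 fold change of Ndufa4 was -0.85 ± 0.168 in Il25 KO against WT (edgeR adjusted p = 0.0241) and -0.76 ± 0.165 in St2 KO against WT, which missed the threshold (edgeR adjusted p = 0.0649). In Alox5 KO it was 0.10 ± 0.127 (adjusted p = 0.877, edgeR). In Il25 KO against St2 KO it was -0.10 ± 0.145 (adjusted p = 0.873, edgeR). The call in Il25 KO was lost without WT replicate 1, WT replicate 2 or Il25 KO replicate 2 (edgeR adjusted p = 0.0891, 0.164 and 0.106) and in the TS libraries alone (0.222), with log2 fold changes of -0.82, -0.83, -0.82 and -0.86. In St2 KO, Ndufa4 passed with DESeq2 (adjusted p = 0.00811), in edgeR without the sample-code term (0.00633) and in edgeR without Alox5 KO replicate 4 (0.00508). With the library total as a term, added after the data were seen, the change of Ndufa4 was -0.74 in Il25 KO (edgeR adjusted p = 0.0115) and only -0.40 in St2 KO (edgeR adjusted p = 0.568), and it was -0.34 in Il25 KO against St2 KO (edgeR adjusted p = 0.487). Over all 27 alternatives the change ranged from -0.96 to -0.74 in Il25 KO and from -0.86 to -0.40 in St2 KO. Of the 6 other tested genes that start within 2 Mb of Ndufa4, none passed in Il25 KO or St2 KO against WT. In that order, Phf14, on its upstream side, changed by -0.07 ± 0.1996 and 0.07 ± 0.196, and Tmem168 by 0.05 ± 0.226 and 0.20 ± 0.221. Tmem106b changed by -0.36 ± 0.164 and -0.21 ± 0.160, and 2610001J05Rik by -0.38 ± 0.150 and -0.24 ± 0.146. Bmt2 changed by -0.22 ± 0.328 and -0.26 ± 0.324, and 1110019D14Rik by -0.63 ± 0.685 and -0.25 ± 0.647. In Il25 KO the unadjusted edgeR p was 0.0397 for Tmem106b and 0.0210 for 2610001J05Rik. Arg1, where the Yarg allele lies, is on chromosome 10.

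**Figure D4:**
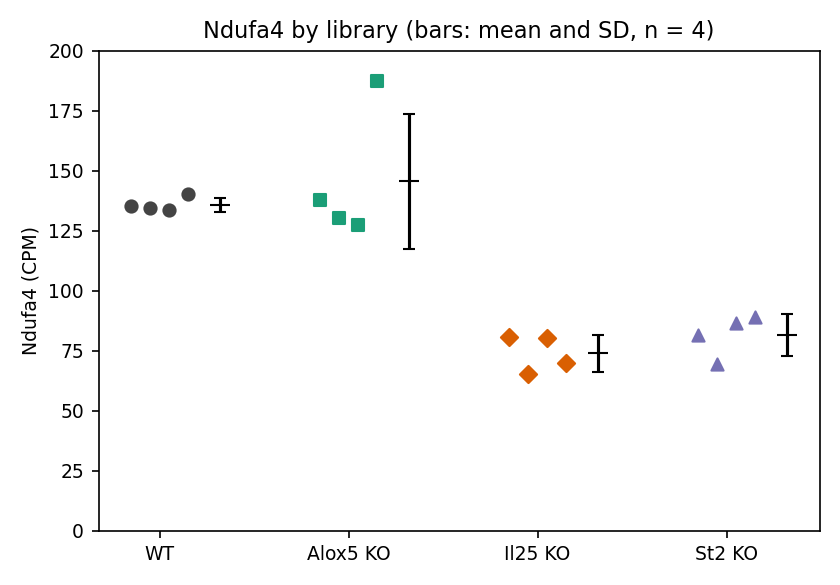
Ndufa4 in CPM (linear axis from 0) in each of the 16 libraries, with the mean and SD of each group (n = 4). The Il25 KO and St2 KO libraries lie between 65.3 and 89.1 CPM and the WT and Alox5 KO libraries between 127 and 187.

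In St2 KO against WT, 0 of the 90 members passed the edgeR test, where 0.298% of all genes did. An unadjusted p under 0.05 was found for 5 members, 4 of them mt-encoded, and DESeq2 called 1, Ndufa4. All 7 mt-encoded members had lower CPM in all 4 St2 KO libraries than in any WT library, and so had 26 of the 83 nuclear-encoded members (31.3%), where 4.84% of all genes did. The median log2 fold change was -0.26 over the mt-encoded members (range -0.45 to -0.23) and -0.09 over the nuclear-encoded members, of which 72 of 83 were below 0, beside 0.01 over all genes. The nuclear-encoded medians by complex were -0.11 for complex I (33 of 36 below 0), -0.04 for complex II (3 of 4), -0.08 for complex III (6 of 8), -0.13 for complex IV (11 of 11) and -0.09 for complex V (12 of 14).

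The mt-encoded members of St2 KO differed from WT in CPM and much less in counts. mt-Cytb had 599, 583, 572 and 595 CPM in WT and 526, 442, 501 and 492 in St2 KO (-0.23 ± 0.112, edgeR adjusted p = 0.663). Its counts were 1552, 1511, 1520 and 1456 in WT and 1560, 1423, 1372 and 1429 in St2 KO, so the groups overlapped in counts. mt-Nd5, a proton-pumping complex I subunit, had 513, 501, 463 and 489 CPM in WT and 432, 351, 415 and 402 in St2 KO (-0.29 ± 0.115, edgeR adjusted p = 0.579). Its counts were 1329, 1298, 1230 and 1196 in WT and 1282, 1130, 1135 and 1167 in St2 KO, with 1 St2 KO library inside the WT range and 3 below it. mt-Nd6 had the largest change of the mt-encoded members, from 100.8, 93.7, 88.1 and 95.2 CPM in WT to 80.6, 57.8, 74.5 and 68.5 in St2 KO (-0.45 ± 0.182, edgeR adjusted p = 0.594). In counts, 3 of the 4 St2 KO libraries were below every WT library for mt-Nd6.

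The St2 KO libraries were the deeper ones, and genes of high read density outside the members moved the same way. The 313 other tested genes with at least 0.3 reads per exonic base had a median log2 fold change of -0.13 in St2 KO against WT, with 272 below 0. When the log2 library total was added to the model as a term, chosen after the data were seen, the median of the mt-encoded members was 0.01, with 4 above and 3 below 0, and that of the nuclear-encoded members was 0.12, with 71 of 83 above 0. Without Alox5 KO 4 and St2 KO 2 the medians were -0.18 and -0.13, with 7 of 7 and 71 of 83 below 0. The direction of the medians in St2 KO therefore depended on whether depth was a term, and with every St2 KO total above every WT total, the effects of depth and genotype cannot be fully told apart.

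A few nuclear-encoded members had higher CPM in St2 KO. All 4 St2 KO libraries were above all WT libraries for 2 members, Sdha and Uqcrb, where 3.63% of all genes were. For Sdha the fitted change was -0.01 ± 0.108 (edgeR adjusted p = 0.992) in the model with TMM scaling and the sample-code term, so the higher CPM did not appear there. Uqcrb, a subunit of complex III, had 41.3, 42.0, 48.9 and 47.4 CPM in WT and 46.6, 48.7, 38.1 and 63.7 in Alox5 KO. It had 43.6, 40.7, 42.4 and 35.9 in Il25 KO and 58.0, 54.4, 58.1 and 58.1 in St2 KO. The fitted change in St2 KO was 0.41 ± 0.206 (edgeR adjusted p = 0.687), and 25.5% of its windows are shared with other genes, mostly pseudogenes. Atp5l, a small subunit of the complex V membrane part, had the highest value, 0.77 ± 0.482 (edgeR adjusted p = 0.768), at 5.39 to 17.2 CPM over the 16 libraries, and Atp5s changed by 0.33 ± 0.259. The lowest nuclear-encoded members after Ndufa4 were Cox7c (-0.37 ± 0.271) and Ndufaf1 (-0.30 ± 0.230), which did not pass.

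In Il25 KO against St2 KO, groups with the same reporter alleles and sample codes, 0 of the 90 members passed with edgeR, 1 had an unadjusted p under 0.05 and DESeq2 called 0, where 1.24% of all genes passed. The medians were 0.15 for mt-encoded members, with 7 of 7 above 0, and 0.09 for nuclear-encoded members, with 65 of 83 above 0, beside -0.01 over all genes. The 313 other genes of high read density had a median of 0.12. With the library total as a term the medians were -0.05 and -0.06. All 4 Il25 KO libraries lay below all St2 KO libraries for 1 member, Uqcrb (-0.45 ± 0.167, edgeR adjusted p = 0.277), against 3.33% of all genes, and above them for 0 members, against 2.62% of all genes. The highest members were the complex I genes Ndufb2 (0.25 ± 0.251), Ndufa11 (0.24 ± 0.133) and Ndufab1 (0.21 ± 0.214), and the lowest beside Uqcrb were Atp5l (-0.50 ± 0.385) and the assembly factor Ndufaf7 (-0.20 ± 0.138), none past the threshold.

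**Figure D5:**
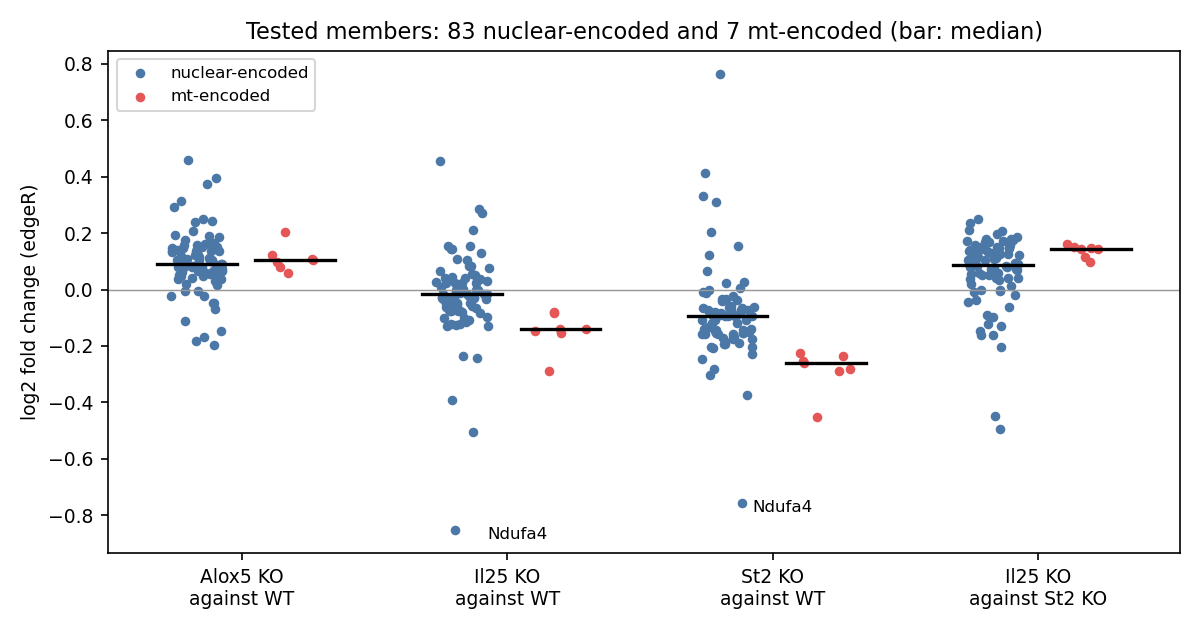
Log2 fold changes of the 83 nuclear-encoded (blue) and 7 mt-encoded (red) members tested, in the 4 comparisons, with 1 point per gene and a bar at each median; points are spread sideways for visibility. The mt-encoded medians are 0.10, -0.14, -0.26 and 0.15 from left to right, and Ndufa4 is the lowest point in Il25 KO and in St2 KO against WT.

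Genes around the machinery were read from 7 lists. The electron carriers and feeders (7 tested), which deliver electrons to the chain, the tricarboxylic acid cycle enzymes (14), the assembly factors outside the members (36), the mitochondrial ribosomal proteins (77), the mitochondrial translation factors (10) and the regulators of mitochondrial biogenesis (11) had 0 called genes in any of the 4 comparisons. The mitochondrial ribosomal proteins, which translate the mt-encoded messages, had medians of 0.07 in Alox5 KO, -0.10 in Il25 KO and -0.05 in St2 KO, with 22, 53 and 49 of 77 genes below 0. Among the biogenesis regulators, Myc changed by -0.69 ± 0.172 in St2 KO (edgeR adjusted p = 0.166), and Nrf1, which encodes the factor whose motif was counted above, by 0.36 ± 0.172 (edgeR adjusted p = 0.658).

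Of the 29 tested genes of mitochondrial DNA replication, transcription and RNA handling, 1 passed, Mterf3, a protein of the mitochondrial transcription termination factor family. It had 99.7 ± 11.4 CPM in WT, 103 ± 8.02 in Alox5 KO, 88.5 ± 14.4 in Il25 KO and 169.9 ± 10.8 in St2 KO (SD, n = 4). It was higher in St2 KO than in WT by 0.72 ± 0.150 (edgeR adjusted p = 0.0447), a call kept in 1 of 16 fits with 1 library left out (adjusted p 0.0302 to 0.370, edgeR). It was lower in Il25 KO than in St2 KO by 0.89 on the log2 scale (-0.89 ± 0.123, edgeR adjusted p = 0.000348), a call kept in 16 of 16 such fits. In the same St2 KO libraries none of the 7 mt-encoded members tested passed in either comparison.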

How the data were processed

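The authors deposited 1 table of read counts per gene for all 16 libraries, not scaled for depth or length. The submitters' processing notes name FastQC 0.11.3, Picard 1.134, HTSeq 0.4.1 and STAR 2.4.2a with build GRCm38. Settings, the treatment of duplicate and multiply aligned reads, and the sort gate are not given in the sources used here. Per the labels' protocols, libraries were made with Nextera XT, which does not mark strand. The table had 53471 rows, of which 6 with a repeated identifier were dropped, and 0 columns outside the libraries. CPM used column totals; exon lengths, positions and transcripts were from GENCODE vM21.

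Counts were tested with edgeR 4.0.16 in R 4.3.3 (TMM scaling, default expression filter, robust quasi-likelihood fit), with group and sample-code pair as terms over all 16 libraries and 10 residual degrees of freedom. The procedure was run on simulated counts whose expected values rose in proportion to the library total. The members' counts did not rise in that way, so this run does not cover their dependence on depth. DESeq2 1.42.0, other scalings, no filter, the legacy mode, no sample-code term, TS alone, a replicate block, mt genes out of the totals and each library left out were alternatives. The library total as a term, and leaving out Alox5 KO 4 and St2 KO 2 together, were added after the data were seen. Slopes used genes of at least 20 counts in every library.

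The members and lists were chosen with earlier results of these data known. The text names the mt-encoded members, called members, per comparison the 3 highest and 3 lowest nuclear-encoded members whose average log2 CPM was 3 or more, the 5 of highest CPM per kb, complex II and the isoform groups, and selected others where the libraries of 2 groups did not overlap, chosen after their values were seen.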

Additional observations from a re-analysis of the deposited data

Results flagged for a closer look

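In groups of 4 libraries, a library was singled out where its gap to the nearest other exceeded Dixon's critical share of the group's range, which chance does in about 1 in 20 groups; 5 of 88 groups were marked. Sdhd stood at 220.5 CPM in Il25 KO 1 against 177 to 181 in the other Il25 KO libraries. Uqcrb was 54.4 CPM in St2 KO 2 against 58.0 to 58.1. Ndufaf2 was 29.3 CPM in WT 2 against 26.1 to 26.7. mt-Co1 was 539 CPM in Alox5 KO 4, the shallowest library, against 454 to 464. mt-Nd4 was 157 CPM in Il25 KO 4 against 184 to 187.

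Outside the protein-coding members, the mitochondrial ribosomal RNA genes had counts in every library. The median count was 964.5 for mt-Rnr1 (774 to 1025) and 2051.5 for mt-Rnr2 (1731 to 2187).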

How the results depend on the processing

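Counts of called members and medians were recomputed under the 27 alternative settings. The ratios were recomputed with single libraries of the compared groups left out and in TS alone. They were also recomputed without mt-Co1 and the mt-encoded members of few or no counts, and without the assembly factors. They were not recomputed with the library total as a term. Of these 368 values, 346 stayed within the spread between libraries or within 1.5 times the count. The members called in Il25 KO were 0 in set TS alone and 0 to 1 with a library left out; in St2 KO they were 1 with DESeq2, 1 without the sample-code term and 0 to 1 with a library left out. In St2 KO the mt-encoded median was -0.393 in TS alone, 0.00654 with the library total as a term and -0.337 to -0.148 with a library left out, the weakest without St2 KO replicate 2. The nuclear-encoded median there was -0.1504 without the sample-code term, -0.131 in TS alone, 0.1203 with the library total as a term and -0.154 to -0.0603 with a library left out, the extremes without Alox5 KO replicates 4 and 3. With the library total as a term the nuclear-encoded median was 0.0627 in Il25 KO, and in Il25 KO against St2 KO the medians were -0.0515 (mt-encoded) and -0.0574 (nuclear-encoded). The log2 ratio of the sums in TS alone was -0.0250 in Alox5 KO and 0.164 in Il25 KO against St2 KO. The cause of these shifts was not tested.

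Same-numbered libraries of different groups did not deviate together (r of -0.08 to 0.20 over 24 pairs, 3 of 16 libraries closest to their own number). The numbers were therefore not used as pairs in the main fit, although this check cannot show how the samples were collected or processed. With the replicate block, the members called were 0, 1, 0 and 0 in the 4 comparisons, as without it, and Ndufa4 changed by -0.86 in Il25 KO. Of 3672 values of single genes, 4 lost a call and 3 gained one, all for Ndufa4, and 0 reversed while called. In 211 a gene called under neither setting changed sign.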
